A study of Rattus norvegicus with 3 samples.

Results

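The genes that make and load peptides for MHC class I molecules were followed in rat adrenal medulla during cold exposure. They were chosen by name, as B2m, Psmb8, Psmb9, Psmb10, Psme1, Psme2, Tap1, Tap2 and Tapbp, and every probe set annotated to 1 of these genes alone was used. That gave 12 of the 31042 gene probe sets on the array and 9 of 14217 named genes. A probe set is a group of short oligonucleotides on the array that together report 1 transcript. RNA labelled as rat adrenal medulla was hybridised to 3 arrays, of which 2 came from rats kept 1 day in the cold (replicates a and b, here D1a and D1b) and 1 from rats kept 7 days in the cold (here D7). The adrenal medulla is the core of the adrenal gland, where chromaffin cells release adrenaline and noradrenaline. Strain, sex, age and temperature are not given in the labels used here, no array of rats outside the cold was analysed here, and nothing says whether D1a and D1b came from separate animals.

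Nearly every nucleated cell shows fragments of its own proteins on MHC class I molecules, which cytotoxic T cells inspect. The proteasome cuts the fragments, a transporter moves them into the endoplasmic reticulum, and a loading complex fits them onto a heavy chain paired with beta-2-microglobulin. Interferons raise most of these genes together, exchanging the standard catalytic subunits of the proteasome for immunoproteasome subunits. Neuroendocrine and nerve cells are known for low class I levels at rest, and a whole piece of medulla also holds vessel, immune and cortical cells. In such bulk RNA, fewer cells of a type and less RNA per cell cannot be told apart.

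Most of the members share a short motif ahead of their start. RefSeq promoter windows of assembly GRCr8, from 250 bases before to 50 bases after the annotated start of a gene, were found for 9 of 9 members. The core of the interferon-stimulated response element, to which interferon regulatory factors bind, was searched as GAAANNGAAA on both strands, and 7 of the 9 windows (77.8%) held it, against 1312 of 33469 windows of all genes (3.92%). The 7 stretches that hold it are shown because they carry this shared feature. They read 5′ to 3′ on the strand of the gene, end at most 25 bases past the start, and have the matches in capitals:
Psmb8 (chr20:4657007-4657075, minus strand): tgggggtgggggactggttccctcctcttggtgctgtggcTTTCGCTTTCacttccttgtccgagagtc
Psmb10 (chr19:50743268-50743405, minus strand): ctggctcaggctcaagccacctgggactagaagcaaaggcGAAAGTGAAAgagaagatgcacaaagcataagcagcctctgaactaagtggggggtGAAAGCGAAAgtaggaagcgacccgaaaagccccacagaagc
Psme2 (chr15:33052755-33052844, minus strand): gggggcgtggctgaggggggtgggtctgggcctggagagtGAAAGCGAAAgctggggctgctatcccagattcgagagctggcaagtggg
Tap1 (chr20:4668615-4668704, minus strand): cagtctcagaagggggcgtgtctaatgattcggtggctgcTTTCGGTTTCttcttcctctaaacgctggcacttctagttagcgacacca
Tap2 (chr20:4652288-4652377, minus strand): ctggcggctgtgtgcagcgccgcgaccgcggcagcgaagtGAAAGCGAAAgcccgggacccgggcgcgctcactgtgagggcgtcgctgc
Tapbp (chr20:4967853-4967943, minus strand): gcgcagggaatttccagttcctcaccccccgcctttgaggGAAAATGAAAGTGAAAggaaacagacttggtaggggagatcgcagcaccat
B2m (chr3:129549140-129549229, plus strand): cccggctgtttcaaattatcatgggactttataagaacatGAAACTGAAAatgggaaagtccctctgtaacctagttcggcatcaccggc
Psmb10 and Tapbp each held 2 matches, which overlap in Tapbp, and in Psmb8 and Tap1 the match lay on the other strand. The first base of each match lay between 150 bases (B2m) and 4 bases (Psmb8) ahead of the start. The windows of Psmb9 and Psme1 held no match, which says only that these letters are not in those windows. Tap1 and Psmb9 are read in opposite directions from starts 457 bases apart on chromosome 20, with 0 other protein-coding genes starting between them. Psmb8 and Tap2 are the next protein-coding genes beyond Tap1. Psme1 and Psme2 start 13780 bases apart on chromosome 15, with Emc9 between them. A further motif, GGGACTTTC, the core of a site for the NF-kappa B factors, was found in the B2m and Tap1 windows, thus in 2 of 9 members and in 0.326% of all windows. The gamma-activated site TTCNNNGAA was found in 1 member, Psmb8, which is 11.1% beside 8.87% of all windows. The motifs were chosen with these windows in view, and a match describes the letters and does not show that a factor binds there. The map of matches by distance from the start sets the 9 windows side by side.

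**Figure D1:**
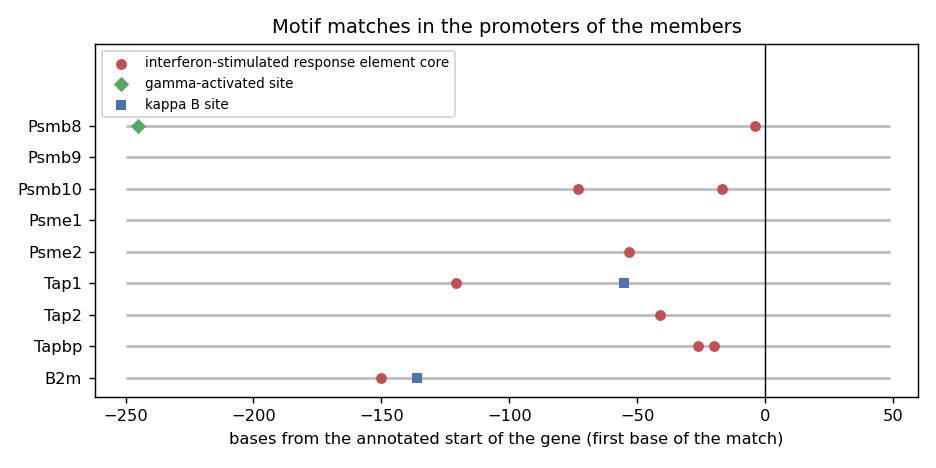
Each line is the promoter window of 1 member, from 250 bases before to 49 bases past its annotated first base (position 0, x axis in bases), and each point is the first base of a match to 1 of the 3 motifs. Matches to the response element core (circles) lie within 150 bases ahead of the start in 7 of 9 genes.

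One array stood apart. The Spearman correlation across all gene probe sets was 0.939 between D1b and D7, and 0.664 and 0.684 for D1a with each of them. The median intensity was 1583 on D1a, 593 on D1b and 675 on D7. For 18 probe sets of control transcripts added to the samples, the geometric mean was 187534, 16829 and 21788. The common scaling thus left D1a unlike the other arrays in these measures, and differences from D1a depend on the scaling. The 3′ to 5′ ratio of the beta-actin control, which climbs when RNA is broken or poorly copied, was 231 on D1a and 6.11 and 8.87 on D1b and D7. Member differences are therefore given against both 1-day arrays. Those of other gene lists are given against D1b, with the list's median against D1a beside it. The part of the scaling and of this RNA quality measure in these differences was not tested. The small number of arrays limits how precise any value can be. Of the 12 member probe sets, 10 passed a filter on brightness (mean log2 level at or above 9.60, the median of all), which covers at least 1 probe set of each of the 9 genes.

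Levels are intensities, the brightness of a probe set as summarised and scaled by the authors, and differences are taken between values of log2(intensity + 16). Levels of different probe sets are not on a common scale and were not compared. A sum over a list serves only to set the same list side by side on the 3 arrays, and its brightest genes weigh most in it.

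The 3 immunoproteasome subunits differed little between D1b and D7, by 0.16 at most on the log2 scale. Psmb8, the subunit that takes the place of Psmb5, read 22091 on D1a, 24493 on D1b and 27392 on D7. As deposited, D7 was thus the highest of the 3, by 0.16 on the log2 scale over D1b and 0.31 over D1a. Relative to D1a, D7 stood at -0.26 with quantile normalisation and -0.24 after loess correction. Relative to D1b it stood at -0.02 with median centring. Psmb9, which takes the place of Psmb6, read 8832, 14590 and 15467 in the same order, so that D7 lay 0.08 above D1b and 0.81 above D1a. Psmb10, which takes the place of Psmb7, read 13402, 11619 and 11258. Here D7 was the lowest, at -0.05 relative to D1b and -0.25 relative to D1a. Psmb10 was the only one of the 12 member probe sets whose 7-day value lay below both 1-day values as deposited.

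The subunits of the PA28 cap, a ring that opens the proteasome and favours the cutting of class I peptides, matched closely between D1b and D7. Psme1, its alpha subunit, read 17800 on D1a, 65968 on D1b and 65572 on D7. The 1-day arrays lay 3.70-fold apart, whereas D1b and D7 differed by -0.01 on the log2 scale. Psme2, the beta subunit, read 22933, 34653 and 31278 in that order, which put D7 at -0.15 relative to D1b and 0.45 relative to D1a. Both subunits therefore stood between their 1-day values as deposited. With quantile normalisation Psme2 on D7 lay below both, at -0.18 relative to D1b and -0.11 relative to D1a. After loess correction these were -0.18 and -0.10. A second Psme1 probe set (1394006_at) read 2044 on D1a, 50.6 on D1b and 109 on D7. It did not pass the filter and ran opposite to the bright one between the 1-day arrays, so it gives no second measure of Psme1.

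Among the transport and loading genes, Tapbp was nearly level on the 3 arrays as deposited. Tapbp encodes tapasin, the bridge between the transporter and the empty class I molecule. It read 6186 on D1a, 6053 on D1b and 6127 on D7, a spread of 0.03 on the log2 scale between the 1-day arrays, and the 7-day value lay between them. Relative to D1a it moved from -0.01 to -0.31 with quantile normalisation, -0.27 after loess correction and 1.197 with median centring. The sign for Tapbp relative to D1a thus depended on the scaling, but median centring shifted the median of all genes to 1.25. Tapbp lay below the median of all genes under each scaling. That median was 0.04 as deposited, 0.18 with quantile normalisation and 0.15 after loess correction. Tap2, one chain of the peptide transporter, read 1507, 1411 and 1744. D7 was the highest, 0.30 over D1b and 0.21 over D1a, and 0.30 was the largest difference from D1b among the 10 brighter member probe sets. Tap1, the other chain of the transporter, read 1655, 2160 and 2032 on its brighter probe set (1388149_at), with D7 at -0.09 relative to D1b and 0.29 relative to D1a. The transporter chains thus lay on opposite sides of D1b. Relative to D1a, both read higher on D7 under quantile normalisation, median centring and loess correction. Quantile normalisation gave 1.29 for Tap2 and 1.25 for the brighter Tap1 probe set, beside 0.18 for all genes. Loess correction gave 0.94 and 0.89, beside 0.15. Median centring gave 1.42 and 1.504, of which most is the shift of all genes, at 1.25. A dim second Tap1 probe set (1375379_at) read 647, 180 and 240. It did not pass the filter, and its 0.39 over D1b turned to -0.11 with quantile normalisation and -0.06 after loess correction.

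B2m encodes beta-2-microglobulin, the light chain without which class I molecules do not reach the cell surface. Its brighter probe set (1367595_s_at) read 41029 on D1a, 124607 on D1b and 143100 on D7. D7 was the highest, by 0.20 over D1b and 1.80 over D1a. The other probe set (1371440_at) read 16757, 35038 and 34919, so that D1b and D7 were alike at 0.00 on the log2 scale and D1a was again lowest. The 0.20 of the brighter probe set became -0.01 with quantile normalisation, 0.02 with median centring and 0.10 after loess correction.

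**Figure D2:**
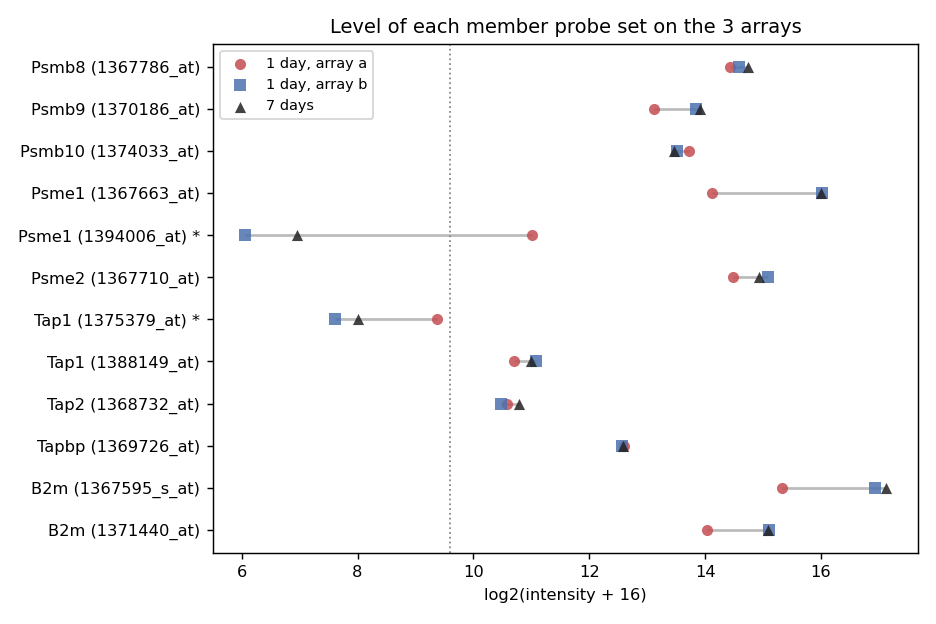
Each row is 1 probe set of a member, the x axis is log2(intensity + 16), and the circle, square and triangle are D1a, D1b and D7, 1 array each with no error. The dotted line is the brightness filter at 9.60, and an asterisk marks the 2 probe sets that did not pass it. Squares and triangles nearly coincide in the 10 brighter rows, while the circle lies far to the left for Psme1 and B2m.

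Set against both 1-day arrays, no member passed the test. The question was which genes differ between a longer and a shorter stay in the cold, and it was tested with limma on all 15521 probe sets past the filter. With limma 0 of the 10 member probe sets tested had an adjusted p under 0.05, as did 0 of 15521 probe sets in all (0%). At an unadjusted limma p under 0.05 there were 0 members and 70 probe sets in all. The fit takes its spread from the 1-day pair, whose log2 difference had an SD of 1.43 over all probe sets past the filter. For D7 minus D1b that SD was 0.39. With so wide a spread, the lack of calls says little about the members. The largest member estimates were 1.00 ± 1.10 for the brighter B2m probe set and 0.94 ± 1.04 for Psme1 (log2 difference ± limma SE, n = 2 and 1 arrays), with an adjusted p in limma of 1.00 for each of the 10. Without D1a, and then with no test, they are 0.20 and -0.01. The smallest was 0.00 ± 0.93 for Tapbp. With 2 arrays against 1, an exact permutation test of a single gene cannot go below p = 0.333.

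Counted by position, D7 stood above both 1-day arrays in 4 of the 12 member probe sets (Psmb8, Psmb9, Tap2 and 1 of B2m) and below both in 1 (Psmb10), beside 22.4% and 25.3% of all probe sets past the filter. The 4 became 2 with quantile normalisation and with median centring, and the 1 became 3 with quantile normalisation, 2 after loess correction and 0 with median centring. No member probe set lay at least 2-fold beyond both 1-day arrays (0 of 12, beside 0.380% of all). Taken against the averaged 1-day levels, the 12 had a median log2 difference of 0.19, beside -0.03 over all probe sets past the filter. It was 0.30 against D1a alone and 0.05 against D1b alone. For the 10 past the filter these medians were 0.25, 0.38 and 0.01 in the same order.

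The 1-day arrays were at least 2-fold apart in 5 of the 12 member probe sets. Among the 10 past the filter the count was 3, beside 44.8% of all probe sets past it, and the median size of the gap was 0.49 on the log2 scale, beside 0.88. D1a was the lower in 7 of these 10, beside 47.6%. The 5 were both B2m probe sets, both Psme1 probe sets and the dim Tap1 probe set. Among the other 7 the widest gap between the 1-day arrays was that of Psmb9, at 0.72 on the log2 scale, and the narrowest that of Tapbp.

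Between D1b and D7 the member probe sets past the filter were close to level, as were most probe sets of at least their brightness. This sets 2 arrays side by side, without a test. Of the 12 member probe sets 7 read higher and 5 lower on D7, and of the 10 past the filter 5 read higher, beside 50.0% of all probe sets past it. Of the 10 past the filter, 0 were at least 2-fold apart, beside 2.40% of all probe sets past it. The dim Psme1 probe set (1394006_at) was 2.15-fold higher on D7 as a plain ratio of intensities. On the log2 scale used here its difference was 0.91, just under 2-fold. The 10 brighter probe sets ranged from -0.15 (Psme2) to 0.30 (Tap2), and 10 of 10 lay within 0.5 on the log2 scale, beside 84.9% of all and 91.6% of the 10709 probe sets at least as bright as the dimmest of the 10. Centring each array on its median lowered all differences from D1b by 0.18, and on that scale 4 of 12 members read higher and the 10 ranged from -0.33 to 0.12. Quantile normalisation gave 5 of 12 higher. Only Tap2, among the 10, stayed at 0.1 or more above D1b under all 4 scalings, at 0.30, 0.24, 0.29 and 0.12. Psmb10, Psme1, Psme2, Tap1 and the dimmer B2m probe set read below D1b under all 4, at -0.33 or above.

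**Figure D3:**
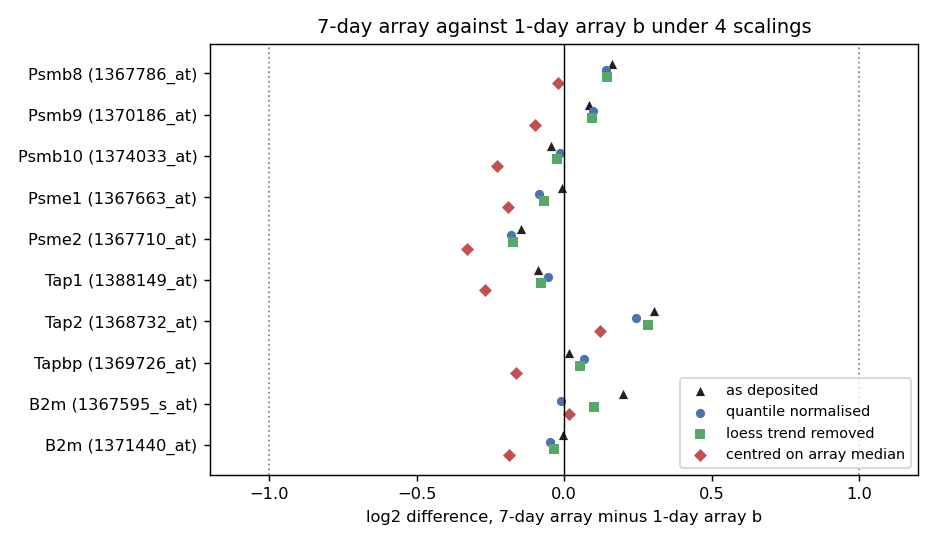
The x axis is the log2 difference between D7 and D1b for the 10 member probe sets past the filter, with 1 marker for each of 4 scalings of the arrays. Dotted lines mark 2-fold either way. The values lie between -0.33 and 0.30, and median centring (diamonds) moves each of them down by 0.18.

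The other genes of the pathway help to place the members. The lists below were named by function, each gene stood by its brightest probe set past the filter, and limma called 0 members of each list. Over all 9292 genes the median difference from D1b was -0.01, with 2301 above both 1-day arrays and 2314 below both, and for the 9 members taken this way it was 0.02 (0.31 against D1a). Median centring lowers every difference from D1b alike, and on that scale all genes stood at -0.19 and the members at -0.16, whereas quantile normalisation gave 0.00 and -0.01.

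The standard proteasome subunits mostly read above D1b as deposited. Psmb5 read 23965 on D1a, 31406 on D1b and 37108 on D7, a difference of 0.24 from D1b beside 0.16 for Psmb8. Psmb7 read 12469, 33128 and 34494, a difference of 0.06 beside -0.05 for Psmb10. The gap between these differences (immune minus standard) was -0.08 for the first pair and -0.10 for the second against D1b, and -0.32 and -1.72 against D1a, and it was not tested. Psmb6 was not analysed here. Of 11 further core subunits 9 read above D1b (median 0.17, and 1.27 against D1a), and 7 of 11 above both 1-day arrays. Of 17 subunits of the regulatory cap, which unfolds ubiquitin-tagged proteins, 16 read above D1b (median 0.18, and 0.44 against D1a) and 13 above both, led by Psmc6 (0.43 over D1b). Against D1b these medians were 0.13 and 0.20 with quantile normalisation and 0.14 and 0.20 after loess correction. On the median-centred scale, where all genes stood at -0.19, they were -0.01 and 0.00. Of 7 other activator and assembly genes 3 lay above both and 1 below both (median 0.03 against D1b and 0.48 against D1a). Among them, Pomp, which helps to build the core and is itself raised by interferon, stood at 0.20 and Psme4 at -0.15.

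Chaperones of the loading complex stayed close to D1b as deposited. Of 8 measured genes of folding and trimming 7 read below D1b, though by at most 0.16, with a median of -0.05 (0.67 against D1a). Against D1b that median was -0.16 with quantile normalisation, -0.09 after loess correction and -0.23 with median centring, where all genes stood at -0.19. The 2 of 8 below both 1-day arrays became 4 with quantile normalisation, 4 after loess correction and 0 with median centring. Calreticulin (Calr) and Pdia3, both parts of the loading complex, stood at -0.16 and -0.15, and Erap1, which trims peptides in the endoplasmic reticulum, at -0.04. Class I heavy chains and related molecules had 10 measured genes, of which 3 lay above both 1-day arrays and 0 below both, with a median of 0.15 against D1b and 0.17 against D1a. Against D1b it was 0.16 with quantile normalisation, 0.17 after loess correction and -0.04 with median centring. RT1-CE12 (0.90) and RT1-CE10 (0.71) were furthest above D1b, while RT1-CE16 and RT1-S3 stood at -0.03 and -0.16. RT1-CE12 lay below D1a, at -0.36, and the 3 above both were RT1-CE10, Cd1d1 and Fcgrt. Differences from D1a ran from -1.65 (RT1-CE5) to 0.74 (RT1-CE10). These genes are near copies of one another and differ between rat strains, so their probe sets may share transcripts and their values are uncertain.

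As deposited, the type I interferon genes read lower on D7 than on either 1-day array. Of 6 measured genes of type I interferon signalling 6 read below both 1-day arrays, beside 2314 of all 9292 genes and 1 of the 9 members. Their median was -0.37 against D1b and -1.02 against D1a. Irf7, a master regulator of the type I response, read 14738 on D1a, 6020 on D1b and 3978 on D7, and Irf9, the DNA-binding part of the complex that reads the response element, read 4500, 2468 and 1790. Ifnar1 and Ifnar2, the receptor chains, stood at -0.41 and -0.33 relative to D1b, and Stat2 at -0.30. Irf3 stood at -0.001, which is nearly level with D1b. The count of 6 below both became 5 with quantile normalisation, 5 after loess correction and 3 with median centring. With median centring the median of this list against D1a was 0.19, where that of all genes was 1.25. Limma's adjusted p was 1.00 for Irf7, and the difference between this list and the members was not tested.

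Genes of interferon gamma signalling, the stronger inducer of the immunoproteasome, were mixed as deposited. Of 10 genes 3 lay above both 1-day arrays and 3 below both, with a median of -0.13 against D1b and 0.34 against D1a. The 3 below both became 1 with quantile normalisation, 0 after loess correction and 0 with median centring. In that order the median against D1b was -0.22, -0.28 and -0.31, the last where all genes stood at -0.19. Irf1, which switches on Psmb9 and Tap1, read 1568 on D1a, 4319 on D1b and 4623 on D7. Jak2 stood at 0.21 and Jak1 at -0.35 relative to D1b, and both lay above D1a, by 1.27 and 1.83. Nlrc5, the transactivator of class I genes, stood at -0.10 relative to D1b and -1.07 relative to D1a. Its mean log2 level of 9.62 was just past the filter. As deposited, Irf8 lay furthest beyond both 1-day arrays, at -0.44 relative to D1b and -0.34 relative to D1a. Other genes that interferon gamma induces read lower, with 7 of 8 below D1b and a median of -0.48 (0.55 against D1a), and 2 of 8 below both 1-day arrays. Serping1 (-0.82), Gbp4 (-0.58), Gbp2 (-0.56) and Igtp (-0.54) were furthest below D1b, and all 4 lay above D1a. The response element core was present in 6 of 12 promoter windows of this last list (50%) and in 1 of 6 of the type I list. Of 5 NF-kappa B genes 1 lay above and 1 below both 1-day arrays, with a median of -0.08 against D1b and 0.71 against D1a.

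**Figure D4:**
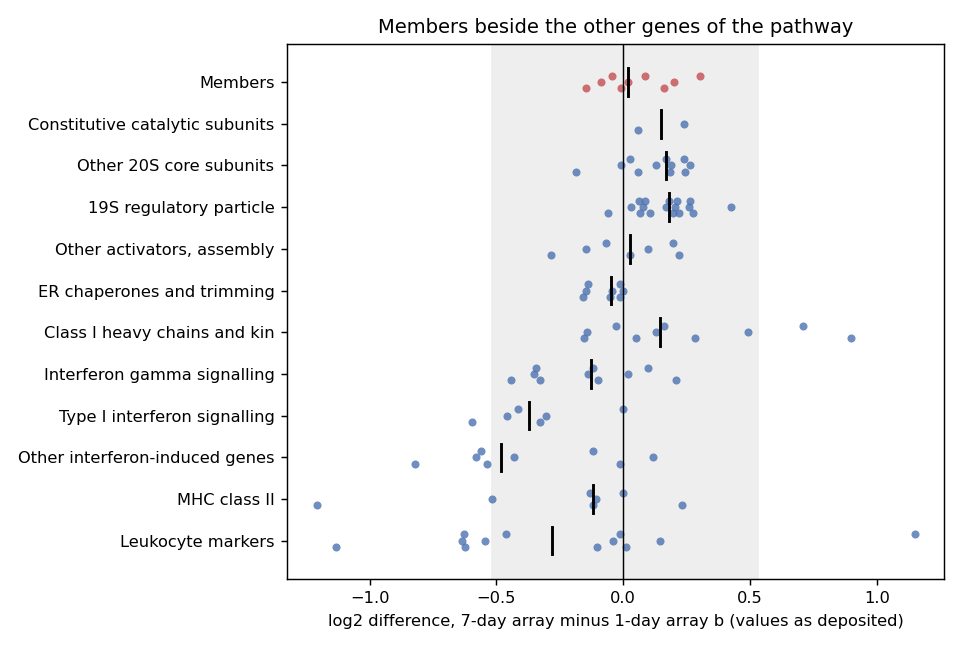
The x axis is the log2 difference between D7 and D1b as deposited, each point is 1 gene at its brightest probe set, and each short bar is the median of its list. The grey band holds the central 90% of all 9292 genes, from -0.52 to 0.53. The 9 members (top row) sit around 0.02, and the type I and other interferon-induced genes have medians of -0.37 and -0.48.

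Markers of the cells that could hold these transcripts moved as follows, and their part in the member values was not tested. Leukocyte markers had 9 of 12 genes below D1b and a median of -0.28 (0.30 against D1a). Their summed intensities were 29000 on D1a, 86431 on D1b and 75241 on D7, of which Lyz2 alone made 10470, 52452 and 48826. These 12 are the genes past the filter, of 20 on the array. The lymphocyte markers Cd3e, Cd3g, Cd3d, Cd8a, Cd4, Cd79b and Nkg7 did not pass it, so lymphocytes have no marker of their own here. Genes of MHC class II, which macrophages and dendritic cells carry, had 6 of 7 below D1b, a median of -0.12 (0.08 against D1a) and sums of 80274, 88245 and 79604. Endothelial markers had 7 of 10 above D1b, sums of 55954, 62900 and 64186, and a median of 0.07 (0.22 against D1a). Chromaffin markers, such as Th and Dbh, had 6 of 12 above D1b, sums of 2477700, 1133530 and 1292920, and a median of 0.09 (0.03 against D1a). Their median was -0.18 against D1b with quantile normalisation and -0.01 after loess correction. Chgb, Chga and Dbh carry most of those sums, which are highest on D1a, while the median gene of the list read lower on D1a than on D1b, at -0.57. Adrenal cortex markers had 8 of 8 above D1b and a median of 0.40 (-0.17 against D1a), with sums of 1959960, 1014590 and 1345670, so that markers of the cortex were measured in each sample labelled as medulla.

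Over the 3 arrays, the genes whose profile lay nearest to the median profile of the members were Zc3h11a, Cct6a, Plcg1, Lipe and Vkorc1l1. Their distance, a root mean square of centred log2 values over 3 arrays, was 0.030 to 0.031. Zc3h11a read 10144, 13293 and 13254 on D1a, D1b and D7. Of 9283 other genes 127 lay as near as or nearer than the closest member, Tap1 (0.051), so the likeness singles out no small group.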

How the data were processed

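RNA of rat adrenal medulla was measured on 3 one-colour arrays (1 day of cold, n = 2; 7 days, n = 1), grouped by sample title. The deposited intensities had been summarised and scaled by the authors. The 2% trimmed mean was 2501 on each array, so a common scaling is read from the values; the software is not given in the sources used here. Values were analysed as log2(intensity + 16). The 57 controls served for array checks only. Of the 31042 gene probe sets, 15521 at or above the median mean log2 (9.60) were kept. Symbols came from the platform annotation, updated by Entrez identifier through RefSeq GRCr8.

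Limma 3.58.1 in R 4.3.3 (lmFit, eBayes with intensity trend, two-sided, Benjamini-Hochberg over all 15521, threshold 0.05) compared 7 days with 1 day. Its 1 residual degree of freedom is the 1-day pair, which may be technical, and with infinite prior degrees of freedom each SE is the spread typical of that brightness. Figures used Python 3.11.15 and matplotlib 3.10.9.

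Members, gene lists and motifs were chosen with earlier results of these data known. Named were all member probe sets, and of each list at most the 3 brightest genes and the 3 furthest beyond both 1-day arrays; other list genes were named after their values were seen, for their role. Alternatives were pseudocounts of 1 and 64, quantile normalisation, median centring, removal of a loess trend (span 0.5), 3 other filters, 2 other limma priors, gene means and leaving out each 1-day array.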

Additional observations from a re-analysis of the deposited data

How the results depend on the processing

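Limma called 0 member probe sets under each of the 11 alternatives that allow a test, and 0 of all probe sets, with 1 to 74 of all at an unadjusted p under 0.05. Median centring of the arrays moved the median member difference from 0.19 to 0.71 against the mean of the 1-day arrays and from 0.05 to -0.13 against D1b. By construction it shifts all probe sets alike, and their median moved from -0.03 to 0.48 and from 0.00 to -0.18. Leaving out 1 of the 1-day arrays gave 0.05 to 0.30 and no test, since no residual degree of freedom is left. Against the mean of the 1-day arrays, the direction turned for Psmb8 (-0.061 with quantile normalisation, -0.046 with the loess trend removed), Psme2 (-0.15 and -0.14), Tapbp (-0.12 and -0.11) and, with median centring, Psmb10 (0.37). The other settings that keep probe sets apart and use all 3 arrays turned no tested member. Averaging the probe sets of a gene turned Psme1 to -0.32 and Tap1 to -0.19 by bringing in their dim probe sets. Without D1a, the bright Psme1 and Tap1 probe sets, Psme2 and the dimmer B2m probe set turned below 0, to -0.15 at the lowest, and without D1b Tapbp did, to -0.014. No paired analysis was possible because the groups share only 1 replicate letter.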
